A study of Mus musculus with 4 samples.

Results

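The mitosis and spindle genes are 47 genes whose products condense the chromosomes, build the spindle, hold the anaphase checkpoint and divide the cell. They were picked by gene symbol, a rule that uses no measured value, but the list was chosen with earlier results of these data known. All 47 were found among the 21878 gene entries of the deposited tables. All 47 had enough counts for the gene test, which 12332 genes entered in all. The lowest member value was 54 counts, for Spc24 in NPC_LPC replicate 1, where counting error alone is 13.6%.

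RNA was sequenced from 2 libraries of HepLPC, progenitor-like cells grown out of mouse hepatocytes, and 2 libraries of NPC_LPC, their counterpart from the liver's non-parenchymal fraction. All mice carry the labels strain C57BL/6 and age 6 to 8 weeks, and both kinds of culture were kept in media that first induce and then expand the progenitor-like state. The protocol names tdTomato reporter mice with AAV8-TBG-Cre, a virus whose Cre is driven by a promoter active in hepatocytes, for the hepatocyte preparation. For the non-parenchymal preparation it names AlbCreERT/R26GFP mice, whose inducible Cre is driven by the albumin promoter and switches on GFP. If the mice were used as listed, origin, mouse line and virus cannot be told apart. The label of cell type for HepLPC names both sources, so the titles decided the groups. Whether replicates are separate mice or cultures is not stated. The p-values below therefore set the difference between the cultures against the spread between these libraries, which may be only technical.

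Library totals ran from 17575998 to 20625957 counts, with 14070 to 14333 genes counted at least once. Defining markers of the liver's cells were checked in every library. Of 10 hepatocyte markers, Tat and Cyp3a11 were at 0, Alb reached at most 2.28 CPM, read counts scaled to the same library total, and the sums of 4427 and 5232 CPM in HepLPC and 3177 and 1724 CPM in NPC_LPC were mostly Apob. The hepatocyte factor gene Hnf4a was at 235 and 249 CPM in HepLPC, against 27.4 and 49.9 CPM in NPC_LPC (DESeq2 adjusted p = 7.05e-10, edgeR adjusted p = 0.057). The 7 bile duct markers summed to 4777 and 2216 CPM in HepLPC and to 9509 and 4786 CPM in NPC_LPC. Spp1 led that sum, at 3026 and 905 CPM in HepLPC and 8944 and 4203 CPM in NPC_LPC, while the biliary keratin gene Krt19 ran the other way, at 1435 and 885 CPM in HepLPC and 111 and 275 CPM in NPC_LPC (DESeq2 adjusted p = 6.2e-06, edgeR adjusted p = 0.0841). Krt7, on chromosome 15, was at 103 and 166 CPM in HepLPC and 1.43 and 17.2 CPM in NPC_LPC. The 5 mesothelial markers summed to 518 and 997 CPM in HepLPC and to 653 and 402 CPM in NPC_LPC. Stellate and fibroblast markers (9 genes), endothelial markers (6 genes) and Kupffer cell and leukocyte markers (6 genes) summed to between 2.31 and 81.6 CPM in any library, with Lrat, Clec4f and Cd3e at 0. Of these 6 sums, that of the endothelial markers, at 7.45 and 5.97 CPM in HepLPC and 2.31 and 3.62 CPM in NPC_LPC, had the library order of the mitosis genes described below. That sum was mostly 1 gene, Kdr, at 6.78 and 5.47 CPM in HepLPC and 1.87 and 3.07 CPM in NPC_LPC. The other 5 endothelial markers were at most 1 CPM in every library. Among single markers of the other lists, Krt19, Podxl and Reln had that order too. The mesothelial marker Podxl was at 319 and 209 CPM in HepLPC and 73.7 and 170 CPM in NPC_LPC. The stellate marker Reln was at most 8.78 CPM. The part of these cell types in the results was not tested.

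As background, a cell enters mitosis when cyclin B and the kinase CDK1 are activated by CDC25 phosphatases, and Polo and Aurora kinases then drive spindle assembly. The spindle checkpoint holds the anaphase-promoting complex in check until every kinetochore is attached. That complex then marks securin and cyclin B for destruction, separase cuts cohesin, and a contractile ring divides the cell. Hepatocytes of the adult liver rarely divide, and the transcripts of these genes accumulate in cycling cells late in the cell cycle. Many of their promoters carry a CHR element, with the core TTTGAA, near the start site, and CCAAT boxes before it. CHR elements are bound by the MuvB complexes, with DREAM as the repressor in resting cells and B-MYB and FOXM1 as the activators, and CCAAT boxes by NF-Y.

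Promoters of 5 members that the results turn on are shown, with TTTGAA and CCAAT on either strand in capitals (TTCAAA and ATTGG are the other-strand spellings). Each runs from 250 bases before to 50 bases after the start site in RefSeq on GRCm38.p6, the assembly called mm10. Ccnb1 lies at chr13:100786437-100786736 on the minus strand, Cdk1 at chr10:69352863-69353162 on the minus strand and Racgap1 at chr15:99651607-99651906 on the minus strand. Espl1 lies at chr15:102296043-102296342 on the plus strand and Smc2 at chr4:52438971-52439270 on the plus strand. Ccnb1, Racgap1 and Espl1 are among the genes that separated the cultures most clearly, Cdk1 is the central kinase, and Smc2 is a member whose fitted value went the other way.
Ccnb1: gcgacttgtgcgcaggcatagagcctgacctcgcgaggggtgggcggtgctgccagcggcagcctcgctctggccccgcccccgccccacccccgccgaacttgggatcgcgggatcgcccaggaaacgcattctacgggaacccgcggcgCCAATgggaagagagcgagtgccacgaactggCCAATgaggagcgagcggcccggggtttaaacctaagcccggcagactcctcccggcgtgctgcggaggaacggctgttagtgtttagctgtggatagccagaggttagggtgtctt
Cdk1: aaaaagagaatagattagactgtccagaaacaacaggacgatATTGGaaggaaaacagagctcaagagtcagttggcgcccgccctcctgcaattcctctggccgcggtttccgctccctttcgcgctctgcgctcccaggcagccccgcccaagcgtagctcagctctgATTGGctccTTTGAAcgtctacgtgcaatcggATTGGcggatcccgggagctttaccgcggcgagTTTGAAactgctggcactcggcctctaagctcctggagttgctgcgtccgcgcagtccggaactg
Racgap1: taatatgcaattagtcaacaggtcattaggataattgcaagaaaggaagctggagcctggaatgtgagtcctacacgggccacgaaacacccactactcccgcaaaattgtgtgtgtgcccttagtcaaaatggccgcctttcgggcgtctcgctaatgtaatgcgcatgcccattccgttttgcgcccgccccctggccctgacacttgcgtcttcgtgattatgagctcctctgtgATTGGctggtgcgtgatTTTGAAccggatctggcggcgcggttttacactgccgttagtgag
Espl1: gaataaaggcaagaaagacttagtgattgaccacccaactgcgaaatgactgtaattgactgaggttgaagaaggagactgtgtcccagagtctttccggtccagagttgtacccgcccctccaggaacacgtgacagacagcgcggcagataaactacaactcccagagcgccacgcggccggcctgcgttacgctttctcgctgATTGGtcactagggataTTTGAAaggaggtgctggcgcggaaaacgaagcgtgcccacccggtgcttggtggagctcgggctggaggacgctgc
Smc2: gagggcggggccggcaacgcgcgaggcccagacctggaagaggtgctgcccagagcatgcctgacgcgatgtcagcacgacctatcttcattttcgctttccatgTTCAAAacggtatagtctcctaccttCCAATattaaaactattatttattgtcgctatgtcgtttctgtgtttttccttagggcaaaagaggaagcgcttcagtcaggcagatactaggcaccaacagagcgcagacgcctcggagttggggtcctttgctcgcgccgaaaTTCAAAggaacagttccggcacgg

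The Racgap1 promoter held TTTGAA once, with its first base 5 bases after the start site, and a CCAAT box 12 bases before it. In Espl1 the TTTGAA lay 27 bases before the start and the CCAAT box 44 bases before it. The Espl1 gene interval given below begins at chr15:102296254, inside this window and upstream of the start site used, so the TTTGAA falls within that interval. The Cdk1 promoter had 2 TTTGAA and 3 CCAAT matches, and that of Smc2 had 2 and 1. The Ccnb1 promoter held no TTTGAA in this window and 2 CCAAT boxes.

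Of the 47 members, 38 had a promoter in the table. TTTGAA was found in 28 of them (73.7%), against 20.2% of the 27025 genes with a promoter. CCAAT was also found in 28 (73.7%), against 41.1% of all genes, and the 2 motifs together in 24 (63.2%), against 8.97%. The related TTCGAA, which reads the same on both strands, was found in 4 (10.5%), against 1.8%. Of 22 DNA replication genes with a promoter, which peak earlier in the cell cycle, 4 (18.2%) held TTTGAA and 14 (63.6%) held CCAAT. Among other lists of mitosis genes, described below, TTTGAA was in 11 of 22 promoters of other spindle motors and microtubule proteins (50%), 6 of 13 of condensin and cohesin (46.2%), 6 of 14 of outer kinetochore genes (42.9%), 7 of 17 of DREAM, E2F and NF-Y factors (41.2%) and 5 of 18 of inner centromere genes (27.8%). It was in 2 of 9 promoters of centriole genes (22.2%), 3 of 16 of the anaphase-promoting complex (18.8%) and 1 of 6 of mitotic entry regulators (16.7%). Members with TTTGAA had a median log2 fold change between the cultures of 0.75 (28 genes, from -0.32 to 1.34), and those without it had 0.68 (10 genes, from -0.69 to 1.26). The ranges overlap, and Mad2l1 and Ccnb1, both without the hexamer here, stand among the members with the largest fold changes. A match is a run of letters in the promoter and not a measured binding site.

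**Figure D1:**
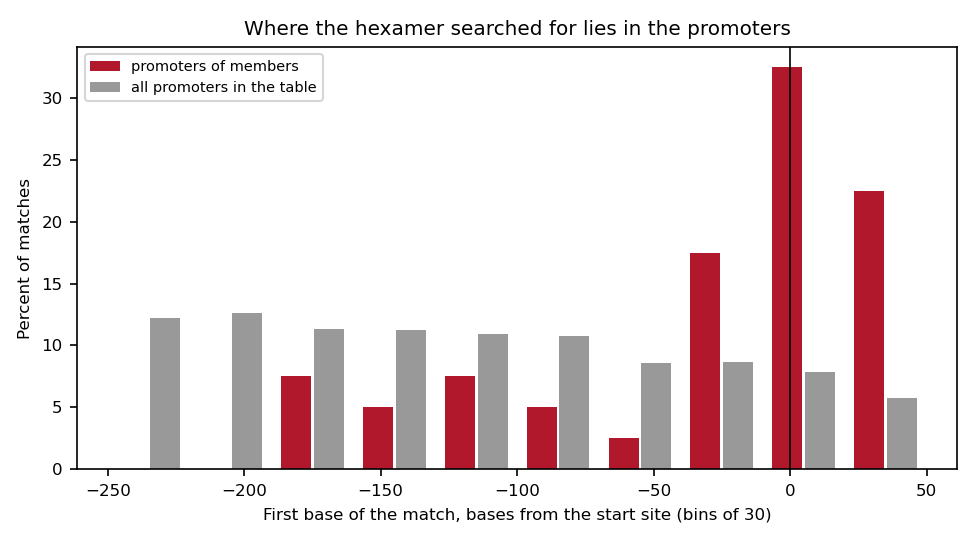
Position of TTTGAA, on either strand, in promoters of the members (red, left bar of each bin) and in all promoters of the table (grey, right bar). The x axis gives the first base of the match in bases from the start site, in bins of 30, and the y axis the percent of matches. Of 40 member matches, 29 (72.5%) lay from 40 bases before the start site onwards, against 1498 of 6737 (22.2%) in all promoters.

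As a whole, the mitosis genes stood higher in HepLPC than in NPC_LPC, and the 2 libraries of each culture also lay far apart. The members took 0.77% and 0.52% of all counts in HepLPC replicates 1 and 2, against 0.305% and 0.481% in NPC_LPC replicates 1 and 2. In CPM scaled by TMM (normalisation factors between libraries), their sum was 7759 and 5149 in HepLPC, against 2996 and 4910 in NPC_LPC. The groups did not overlap, yet the lower HepLPC library was 1.05 times the higher NPC_LPC library. The means were 6454 ± 1846 CPM in HepLPC and 3953 ± 1353 CPM in NPC_LPC (SD, n = 2 each), a ratio of 1.63. An exact two-sided permutation test of 2 against 2 libraries cannot give a p below 0.33, so it could not pass 0.05, and the sum was given no other test. In these bulk samples, fewer cells in mitosis and less mitotic RNA per cell cannot be told apart. Below, values are CPM, and those of a group are given for replicate 1 and then replicate 2.

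Per gene, the edgeR quasi-likelihood test with Benjamini-Hochberg adjustment over all 12332 genes called none of the 47 members. The background for that rule is 0.227% of all genes called higher and 0.203% called lower in HepLPC, or 0.43% in either direction. At an unadjusted p under 0.05 the test had 19 members, 40.4% of them, against 21.9% of all genes. DESeq2 called 6 members higher, 12.8% of them, against 5.35% of all genes, and none lower, against 6.24%. These 6 were Ccnb1 (chr13:100778739-100786486 on mm10), Mad2l1 (chr6:66535221-66541107), Espl1 (chr15:102296254-102324357), Racgap1 (chr15:99620496-99651656), Kif11 (chr19:37376382-37421863) and Ect2 (chr3:27097222-27154253). Without a filter on low counts edgeR called Ccnb1 too, at an adjusted p of 0.0485. That is 1 of 47 members, where the same setting called 3.74% of all genes in either direction.

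The direction was shared more widely than the calls. The log2 fold change, HepLPC over NPC_LPC, was above 0 in 45 of 47 members, against 49.8% of all genes, and its median was 0.73, against -0.003 for all genes. It ran from -0.69 for Pttg1 to 1.34 for Espl1, with quartiles of 0.53 and 0.98. In 33 members (70.2%) both HepLPC libraries lay above both NPC_LPC libraries, against 27.9% of all genes. In Pttg1 alone both lay below, against 28.6% of all genes, and in 13 members the groups overlapped. Members share their cells, so these shares describe 4 libraries and are not 47 separate observations.

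**Figure D2:**
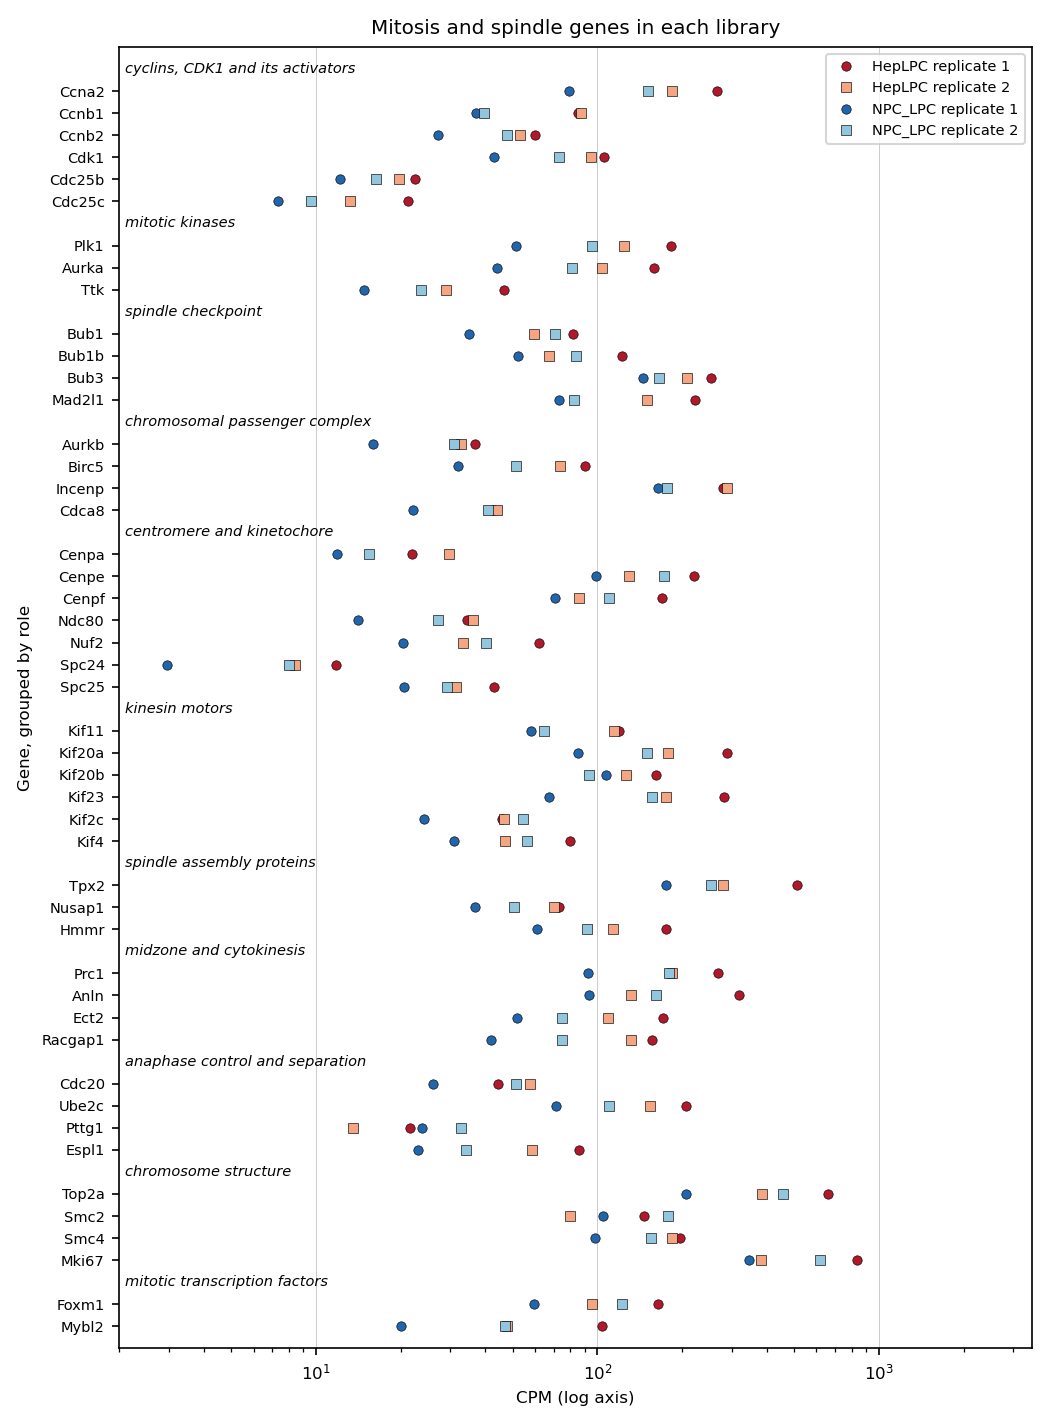
CPM of each of the 47 members (rows, grouped by role) in each of the 4 libraries, on a log axis. HepLPC libraries are red and orange, NPC_LPC libraries dark and light blue. NPC_LPC replicate 1 is the leftmost point for 44 members and HepLPC replicate 1 the rightmost for 38.

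The members moved together from library to library. In 27 of them the order was HepLPC replicate 1, HepLPC replicate 2, NPC_LPC replicate 2, NPC_LPC replicate 1, from high to low. HepLPC replicate 1 was highest in 38 members, HepLPC replicate 2 in 6 and NPC_LPC replicate 2 in 3. NPC_LPC replicate 1 was lowest in 44, HepLPC replicate 2 in 2 (Pttg1 and Smc2) and NPC_LPC replicate 2 in 1 (Kif20b).

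Within HepLPC, replicate 1 over replicate 2 had a median ratio of 1.45 over the members (from 0.736 for Cenpa to 2.42 for Anln), with 40 above 1, where the median of all genes was 0.996. Within NPC_LPC, replicate 2 over replicate 1 had a median of 1.71 (from 0.87 for Kif20b to 2.71 for Spc24), with 46 above 1, where all genes had 1.03. Between the cultures, HepLPC replicate 2 over NPC_LPC replicate 2 had a median of 1.18 (from 0.412 for Pttg1 to 2.21 for Ccnb1), with 34 of 47 above 1 (72.3%), against 49.3% of all genes. These 2 libraries are 1 of each culture, so the last ratios have no replicate. In Ccnb1, Incenp and Kif11 the replicates of both cultures lay within 1.115-fold of each other. Incenp and Kif11 lie on chromosome 19, described below.

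**Figure D3:**
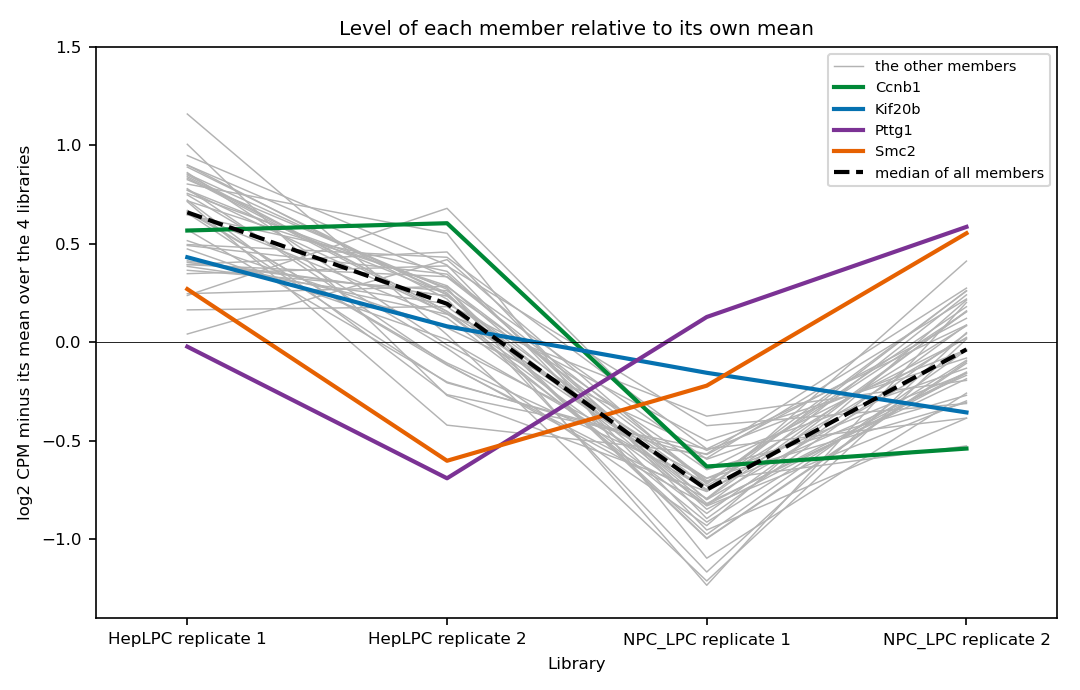
Level of each of the 47 members in each library, as log2 CPM minus the member's own mean over the 4 libraries. Grey lines are members, the dashed line is their median, and 4 members are coloured. Most lines share 1 shape, highest in HepLPC replicate 1 and lowest in NPC_LPC replicate 1. Ccnb1 is flat within each culture, Kif20b is lowest in NPC_LPC replicate 2, and Pttg1 and Smc2 are lowest in HepLPC replicate 2.

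The cyclins, CDK1 and its activators, which start mitosis, held the member with the smallest p. Ccnb1, the cyclin B1 gene, had 85.3 and 87.5 CPM in HepLPC, against 37.2 and 39.6 CPM in NPC_LPC. Its replicates nearly coincided and its groups were 2.25-fold apart (log2 fold change 1.17, SE 0.23, edgeR adjusted p = 0.0828, DESeq2 adjusted p = 0.00162). Ccnb2, the related cyclin B2 gene, had 59.8 and 52.9 CPM in HepLPC, against 27.1 and 47.6 CPM in NPC_LPC, with groups that lay close (log2 fold change 0.59, SE 0.34). Cdk1, the kinase both cyclins activate, had 105 and 95.2 CPM in HepLPC, against 43.0 and 73.1 CPM in NPC_LPC.

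Ccna2, the cyclin A2 gene of S phase and early mitosis, had 267 and 185 CPM in HepLPC, against 79.2 and 152 CPM in NPC_LPC. Of the phosphatases that activate CDK1, Cdc25b had 22.5 and 19.7 CPM in HepLPC, against 12.2 and 16.3 CPM in NPC_LPC. Cdc25c had 21.3 and 13.2 CPM in HepLPC, against 7.35 and 9.61 CPM in NPC_LPC. In all 6 genes of the group both HepLPC libraries lay above both NPC_LPC libraries, against 27.9% of all genes. The distance at the nearest point ran from 1.11-fold in Ccnb2 to 2.16-fold in Ccnb1. The group's median log2 fold change was 0.88.

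The mitotic kinases behaved alike. Plk1, the Polo-like kinase of spindle poles and kinetochores, had 182 and 124 CPM in HepLPC, against 51.5 and 95.9 CPM in NPC_LPC (log2 fold change of 1.05 with an SE of 0.38). Aurka, the Aurora kinase of spindle poles, had 158 and 104 CPM in HepLPC, against 43.9 and 81.3 CPM in NPC_LPC (log2 fold change of 1.07 with an SE of 0.39). Ttk, the checkpoint kinase also called MPS1, had 46.7 and 28.97 CPM in HepLPC, against 14.8 and 23.6 CPM in NPC_LPC. In all 3 both HepLPC libraries lay above both NPC_LPC libraries, against 27.9% of all genes. These kinases had the highest median log2 fold change of the 11 roles, 1.05. Neither edgeR (adjusted p = 0.194 for Plk1 and for Aurka) nor DESeq2 called them.

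The spindle checkpoint genes split. Mad2l1, whose product MAD2 sits on unattached kinetochores and blocks CDC20, had 223 and 150.1 CPM in HepLPC, against 73.3 and 82.8 CPM in NPC_LPC. It was 2.39-fold higher in HepLPC (log2 fold change 1.26, SE 0.28, edgeR adjusted p = 0.0977, DESeq2 adjusted p = 0.00403). Bub3, the second most abundant member per length, had 254 and 208 CPM in HepLPC, against 145 and 165 CPM in NPC_LPC. Bub1 and Bub1b, which encode the kinetochore kinase BUB1 and its relative BUBR1, overlapped between the groups. Bub1b had 122 and 67.1 CPM in HepLPC, against 52.1 and 84.2 CPM in NPC_LPC, and Bub1 had 81.6 and 59.3 CPM in HepLPC, against 34.96 and 70.4 CPM in NPC_LPC. Their log2 fold changes of 0.47 (SE 0.39) and 0.42 (SE 0.40) were of the size of their errors.

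In the chromosomal passenger complex, which corrects faulty attachments and then moves to the midzone, the scaffold gene differed from its partners in spread. Incenp, the scaffold, had 279.8 and 288 CPM in HepLPC, against 164 and 177 CPM in NPC_LPC (log2 fold change of 0.73 with an SE of 0.22, edgeR adjusted p = 0.155, DESeq2 adjusted p = 0.0547). Its replicates lay close, with a ratio of 0.973 within HepLPC (replicate 1 over 2) and 1.08 within NPC_LPC (replicate 2 over 1). Incenp lies on chromosome 19, whose median log2 ratio in these comparisons was -0.66 within HepLPC and -0.48 within NPC_LPC. Its partners lie on chromosomes 11 and 4. Whether the chromosome took part in the difference in spread was not tested. Birc5, which encodes survivin, had 90.1 and 73.8 CPM in HepLPC, against 31.9 and 51.6 CPM in NPC_LPC. Aurkb, the complex's kinase, had 36.8 and 32.7 CPM in HepLPC, against 16.0 and 30.9 CPM in NPC_LPC. Cdca8, which encodes borealin, had 42.8 and 44.0 CPM in HepLPC, against 22.1 and 40.9 CPM in NPC_LPC. For Aurkb and Cdca8 the NPC_LPC replicates were further apart than NPC_LPC replicate 2 was from HepLPC. All 4 genes had both HepLPC libraries on top, against 27.9% of all genes.

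Centromere and kinetochore genes showed 4 of 7 members with both HepLPC libraries above both NPC_LPC libraries, against 27.9% of all genes. Cenpa, the centromeric histone gene, had 21.9 and 29.8 CPM in HepLPC, against 11.9 and 15.4 CPM in NPC_LPC, and was higher in HepLPC replicate 2 than in replicate 1. Ndc80, Spc24 and Spc25, which encode subunits of the microtubule-binding NDC80 complex, also had separate groups. Ndc80 had 34.5 and 36.1 CPM in HepLPC, against 14.1 and 27.0 CPM in NPC_LPC. Spc24, the least abundant member, had 11.8 and 8.45 CPM in HepLPC, against 2.96 and 8.02 CPM in NPC_LPC, and Spc25 had 42.8 and 31.5 CPM in HepLPC, against 20.5 and 29.2 CPM in NPC_LPC.

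Nuf2, the partner of NDC80, overlapped, with 61.8 and 33.3 CPM in HepLPC against 20.3 and 40.2 CPM in NPC_LPC. So did the genes of the 2 large kinetochore proteins. Cenpe, a plus-end motor, had 221 and 129 CPM in HepLPC, against 98.7 and 173 CPM in NPC_LPC, and Cenpf, a coiled-coil protein gene, had 170.2 and 85.8 CPM in HepLPC, against 70.9 and 109.6 CPM in NPC_LPC. Summed over the 7 genes, HepLPC replicate 2 stood at 0.88 times NPC_LPC replicate 2, below 1, although the median log2 fold change of the role was 0.65.

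Among the kinesin motors, Kif11, on chromosome 19, stood out for its small spread. Kif11, the motor EG5 that pushes spindle poles apart, had 119 and 114 CPM in HepLPC, against 58.2 and 64.8 CPM in NPC_LPC (log2 fold change of 0.93 with an SE of 0.22, edgeR adjusted p = 0.106, DESeq2 adjusted p = 0.0168). Kif20a, the motor MKLP2 that carries the passenger complex to the midzone, had 289 and 178 CPM in HepLPC, against 85.0 and 150.2 CPM in NPC_LPC. Kif23, the motor MKLP1 of the midzone, had 281 and 176 CPM in HepLPC, against 67.1 and 156 CPM in NPC_LPC. Kif20a was 1.99-fold and Kif23 2.05-fold higher in HepLPC by mean CPM, where Kif11 was 1.90-fold higher. Their replicates lay further apart than those of Kif11, and neither test called them. The genes of chromosome 19 had a median log2 ratio of -0.66 for HepLPC replicate 1 over replicate 2. For NPC_LPC replicate 2 over replicate 1 it was -0.48. Most members had ratios above 1 in these comparisons. Whether the chromosome took part in the small spread of Kif11 was not tested.

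Kif20b, a motor of late cytokinesis, was the member whose lowest library was NPC_LPC replicate 2. It had 161 and 126 CPM in HepLPC, against 107 and 93.3 CPM in NPC_LPC, and lies on chromosome 19 like Kif11. Kif4, the chromokinesin gene on the X chromosome, and Kif2c, which encodes the microtubule depolymerase MCAK, overlapped between the groups. Kif4 had 80.0 and 46.9 CPM in HepLPC, against 30.8 and 56.2 CPM in NPC_LPC. Kif2c had 45.8 and 46.4 CPM in HepLPC, against 24.2 and 54.4 CPM in NPC_LPC, the smallest positive log2 fold change of the members at 0.23 (SE 0.42).

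The 3 spindle assembly genes all had both HepLPC libraries above both NPC_LPC libraries, against 27.9% of all genes. Tpx2, which activates Aurora A and nucleates microtubules, had 512 and 279 CPM in HepLPC, against 175 and 253 CPM in NPC_LPC. Hmmr, whose product binds spindle microtubules, had 175 and 114 CPM in HepLPC, against 61.1 and 91.4 CPM in NPC_LPC. Nusap1, which bundles spindle microtubules, had 73.0 and 69.9 CPM in HepLPC, against 36.8 and 50.7 CPM in NPC_LPC. Their log2 fold changes ran from 0.71 to 0.92, and neither test called any of them.

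Genes of the midzone and of cytokinesis held 2 of the 6 DESeq2 calls, both regulators of RhoA at the division plane. Racgap1, the centralspindlin subunit that binds MKLP1, had 156 and 131 CPM in HepLPC, against 41.9 and 74.9 CPM in NPC_LPC (log2 fold change of 1.30 with an SE of 0.34, edgeR adjusted p = 0.12, DESeq2 adjusted p = 0.0117). Ect2, the exchange factor that activates RhoA, had 171 and 109 CPM in HepLPC, against 51.7 and 74.8 CPM in NPC_LPC (log2 fold change of 1.14 with an SE of 0.33, edgeR adjusted p = 0.142, DESeq2 adjusted p = 0.0309). In both genes every HepLPC library lay at least 1.45-fold above every NPC_LPC library.

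Prc1, which bundles the antiparallel microtubules of the midzone, had 267 and 184 CPM in HepLPC, against 92.5 and 179.7 CPM in NPC_LPC, so that the replicates numbered 2 were level. Anln, the anillin gene of the contractile ring, overlapped and had the widest HepLPC replicates of all members, at 318 and 131 CPM, against 93.5 and 161 CPM in NPC_LPC.

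Anaphase control was the role in which the members differed most. Espl1, the separase gene, had 86.2 and 58.6 CPM in HepLPC, against 23.1 and 34.2 CPM in NPC_LPC. It had the largest fold change of the members, 2.53-fold (log2 fold change 1.34, SE 0.34, edgeR adjusted p = 0.115, DESeq2 adjusted p = 0.00967). Pttg1, which encodes securin, the inhibitor that separase is freed from at anaphase, had 21.5 and 13.5 CPM in HepLPC, against 23.9 and 32.8 CPM in NPC_LPC. It had the lowest log2 fold change of the members, at -0.69 (SE 0.37, edgeR adjusted p = 0.329, DESeq2 adjusted p = 0.343), and neither test called it. The enzyme and its inhibitor thus stood at opposite ends of the list, and the difference between their fold changes was not tested. Espl1 lies on chromosome 15, and without that chromosome's median, described below, it stood at 0.66, near the median of the members.

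Ube2c, the ubiquitin-conjugating enzyme of the anaphase-promoting complex, was the most abundant member per length, with 200.1 and 150.3 FPKM in HepLPC, against 67.6 and 104 FPKM in NPC_LPC. In CPM it had 206 and 153 in HepLPC, against 71.1 and 110.4 in NPC_LPC (log2 fold change of 0.99 with an SE of 0.31, edgeR adjusted p = 0.164, DESeq2 adjusted p = 0.0575). Cdc20, the activator of the complex, overlapped, with 44.2 and 57.5 CPM in HepLPC against 26.1 and 51.5 CPM in NPC_LPC.

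Genes of chromosome structure were the most abundant by counts and had the lowest median log2 fold change of the 11 roles, 0.47. Mki67, the gene of the proliferation marker Ki-67 that coats mitotic chromosomes, had 837 and 381 CPM in HepLPC, against 344 and 617 CPM in NPC_LPC, so the cultures overlapped (log2 fold change 0.34, SE 0.48). Top2a, which untangles sister DNA, lay at 662 and 385 CPM in HepLPC, against 206 and 457 CPM in NPC_LPC. Smc4, a core condensin subunit gene, had 197 and 184 CPM in HepLPC, against 97.8 and 155 CPM in NPC_LPC. It was the 1 of 4 with both HepLPC libraries on top, near the 27.9% of all genes. Smc2, whose product pairs with that of Smc4 in condensin, had 147 and 80.1 CPM in HepLPC, against 104 and 178 CPM in NPC_LPC. Its log2 fold change was -0.32 (SE 0.40). Summed over these 4 genes, HepLPC replicate 2 stood at 0.732 times NPC_LPC replicate 2.

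Of the transcription factors that drive the programme, Mybl2 (B-MYB) had 104 and 47.7 CPM in HepLPC, against 20.03 and 46.96 CPM in NPC_LPC. Foxm1 had 165 and 95.4 CPM in HepLPC, against 59.7 and 122 CPM in NPC_LPC, and overlapped. Their log2 fold changes were 1.18 (SE 0.54) and 0.52 (SE 0.44). Each varied at least 1.72-fold between the replicates of either culture, and neither test called them.

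**Figure D4:**
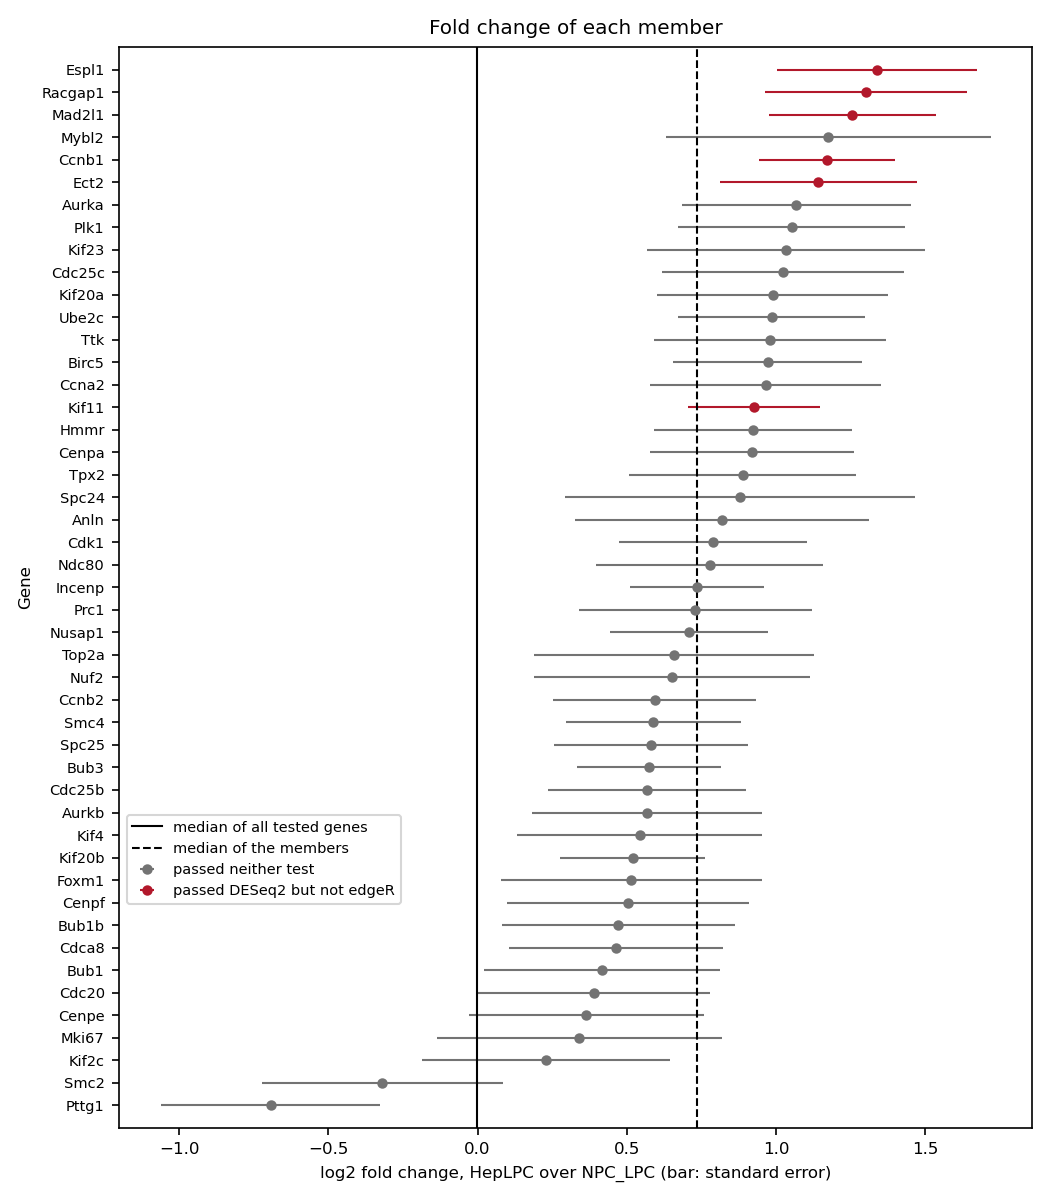
Log2 fold change, HepLPC over NPC_LPC, of each of the 47 members from the edgeR fit. Bars are standard errors derived from the F statistic of the test. The 6 members in red passed DESeq2 and none passed edgeR. The dashed line is the members' median (0.73) and the solid line that of all tested genes (-0.003). Only Smc2 and Pttg1 lie below 0.

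Whole chromosomes differed between the cultures, and some also between replicates, and this touched some members. The median log2 fold change of the genes of a chromosome was 0.68 on chromosome 15, which holds Racgap1 and Espl1, 0.27 on chromosome 19, which holds Incenp, Kif11 and Kif20b, and -0.57 on chromosome 4, which holds Cdca8, Kif2c, Cdc20 and Smc2. Medians were taken over 9086 genes with a mean of at least 10 CPM on 20 chromosomes. In the 4 pairs of 1 HepLPC and 1 NPC_LPC library the median ran from 0.54 to 0.85 for chromosome 15, from -0.31 to 0.81 for chromosome 19 and from -0.77 to -0.35 for chromosome 4. Chromosome 19 thus differed in sign from pair to pair. For HepLPC replicate 1 over replicate 2 the median log2 ratio was -0.66 on chromosome 19, -0.61 on chromosome 14 and -0.35 on chromosome 4. For NPC_LPC replicate 2 over replicate 1 it was -0.48 on chromosome 19, 0.13 on chromosome 14 and 0.06 on chromosome 4. On chromosome 19 both were larger in size than the 0.27 between the cultures.

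With its chromosome's median taken away, a calculation added after seeing the data, Racgap1 stood at 0.62 and Espl1 at 0.66, near the members' median. Smc2 stood at 0.25, above 0, while Cdca8, Cdc20 and Kif2c stood at 1.03, 0.96 and 0.80. Kif11, Incenp and Kif20b, whose chromosome 19 also shifted between replicates, stood at 0.66, 0.47 and 0.25. Ccnb1, Mad2l1 and Ect2, whose chromosomes 13, 6 and 3 had medians of -0.07, 0.02 and 0.12, stayed at 1.24, 1.24 and 1.03. Over all members the median was 0.69, the SD was 0.34 where it had been 0.38, and 46 of 47 values lay above 0, with Pttg1 (chromosome 11) at -0.75 the exception. The source of the chromosome differences was not tested.

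**Figure D5:**
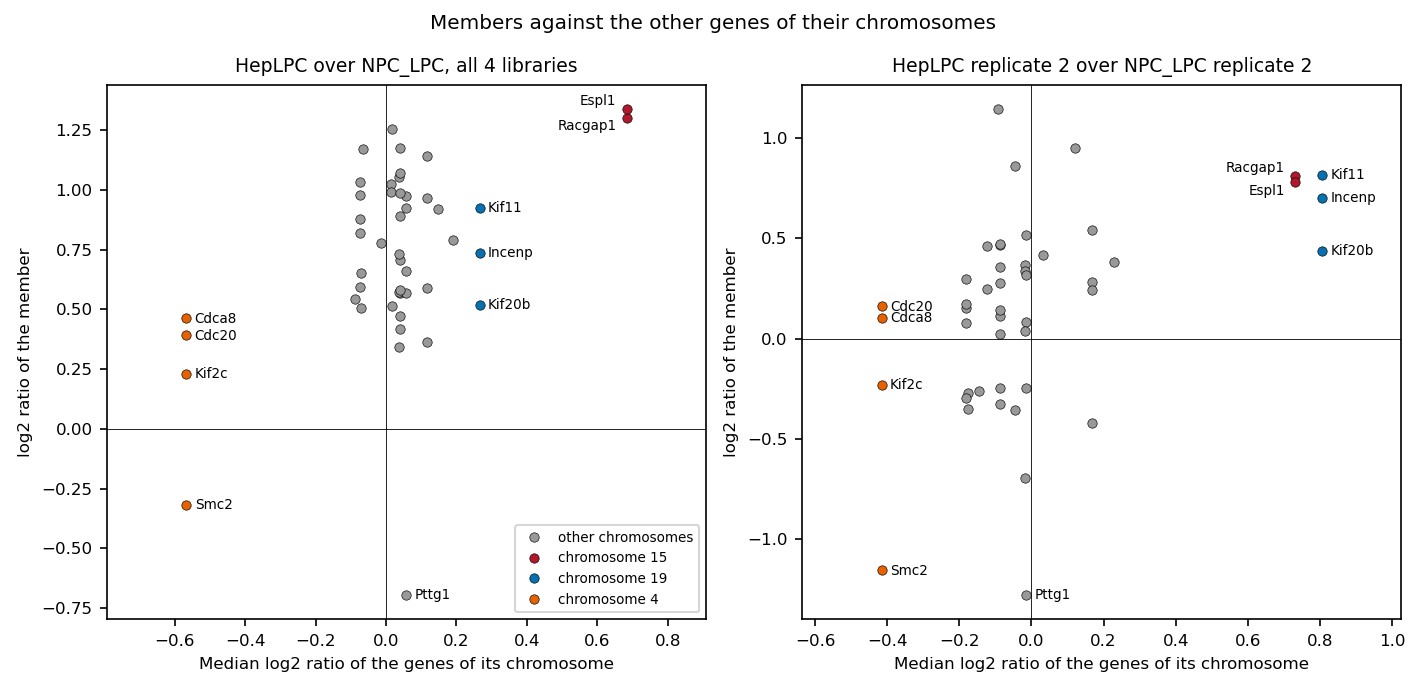
Each member's log2 ratio (y axis) against the median log2 ratio of the genes of its chromosome (x axis), for HepLPC over NPC_LPC in all 4 libraries (left) and for HepLPC replicate 2 over NPC_LPC replicate 2 (right). Members on chromosomes 15, 19 and 4 are coloured and named. The 2 members on chromosome 15 have the largest fold changes in the left panel, and the 4 on chromosome 4 lie below the median of the members.

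Other genes of mitosis and of the cell cycle were read in 9 lists of 162 genes, all of them tested. The edgeR test called none of the 162, with 29 at an unadjusted p under 0.05 (17.9%, against 21.9% of all genes). DESeq2 called 13 higher and 1 lower, or 8.02% and 0.617%, against 5.35% and 6.24% of all genes. The lists' median log2 fold changes ran from -0.16 to 0.69, against -0.003 for all genes, of which 49.8% lay above 0. Genes named from them are the 2 most abundant per length of each list, and those that DESeq2 called, which were added after their values were seen.

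The list nearest to the mitosis genes was that of 28 DNA replication genes, 27 of them above 0, with a median of 0.69 and separate groups in 16. It summed to 3499 and 2509 CPM in HepLPC, against 1380 and 2201 CPM in NPC_LPC, the library order of the mitosis genes. Rrm2, a subunit of ribonucleotide reductase, had 461 and 420.4 CPM in HepLPC, against 144 and 226 CPM in NPC_LPC (log2 fold change of 1.25 with an SE of 0.30, edgeR adjusted p = 0.109, DESeq2 adjusted p = 0.00444). Pcna, the sliding clamp, had 240.1 and 177 CPM in HepLPC, against 109 and 137 CPM in NPC_LPC. DESeq2 also called the origin licensing gene Cdt1 (log2 fold change 1.06), the primase gene Prim1 (1.20) and the helicase cofactor gene Gins1 (1.51) higher in HepLPC. With Rrm2 these were 4 of 28 genes, where DESeq2 called 5.35% of all genes higher.

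Kinetochore lists had smaller medians than the DNA replication list. All 17 outer kinetochore genes and checkpoint partners were above 0, with a median of 0.37. Pmf1, of the MIS12 complex, had 64.8 and 73.9 CPM in HepLPC, against 21.2 and 33.7 CPM in NPC_LPC (log2 fold change of 1.34 with an SE of 0.31, edgeR adjusted p = 0.105, DESeq2 adjusted p = 0.00587). Zwint, a partner of the checkpoint's RZZ complex, had 297 and 309 CPM in HepLPC, against 288 and 233 CPM in NPC_LPC. Of 19 inner centromere genes 16 were above 0, with a median of 0.56, and DESeq2 called Cenpm (1.60) and Stra13 (1.21), listed here as an older symbol of Cenpx. The list's most abundant genes per length, Cenpb and Mis18a, had log2 fold changes of -0.27 and 0.26.

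Condensin and cohesin genes were above 0 in 14 of 16, with a median of 0.46. Rad21, the cohesin subunit that separase cuts, had 513 and 435 CPM in HepLPC, against 243 and 287 CPM in NPC_LPC (log2 fold change 0.84, DESeq2 adjusted p = 0.0361). Smc1a, a core subunit of cohesin, had 540.5 and 309 CPM in HepLPC, against 268 and 297 CPM in NPC_LPC. The condensin genes Ncapg and Ncaph2 were at 1.02 and 1.15 and were called by DESeq2. Mitotic entry regulators were above 0 in 8 of 9, with a median of 0.31. Among them DESeq2 called Gtse1 (0.89) and Pkmyt1 (1.16), which encodes the kinase that holds CDK1 inactive, while Arpp19 stood at 0.17. Cenpm, Rad21, Ncaph2 and Gtse1 lie on chromosome 15, and without its median they stood at 0.92, 0.16, 0.46 and 0.20.

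Other spindle motors and microtubule proteins were above 0 in 20 of 24, with a median of 0.35. Tacc3 (1.17) was called by DESeq2, and the 2 most abundant per length, Numa1 and Ckap2, stood at 0.002 and -0.04. Subunits and regulators of the anaphase-promoting complex were above 0 in 11 of 17, with a median of 0.21, and of its most abundant genes Ube2s stood at 0.64 and Anapc5 at 0.21. DREAM, E2F and NF-Y factors were above 0 in 12 of 22, near the share of all genes, with a median of 0.09, and Tfdp1 and E2f4 stood at 0.07 and 0.22.

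Centriole and centrosome genes were the list with a median below 0, at -0.16, and 4 of 10 lay above 0. Nek2, a kinase that parts the centrosomes, stood at 0.82 and Cep192 at -0.12. Cdk5rap2, a pericentriolar protein gene, had 30.7 and 24.9 CPM in HepLPC, against 51.0 and 56.5 CPM in NPC_LPC, and DESeq2 called it lower in HepLPC (log2 fold change -0.95, SE 0.26, edgeR adjusted p = 0.131, DESeq2 adjusted p = 0.0406). It lies on chromosome 4, and stood at -0.39 without that chromosome's median.

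Read assignment limits 8 members, whose exons overlap those of another protein-coding gene on the opposite strand in GENCODE M21. The pairs are Ccna2 with Exosc9, Cdc25b with Spef1, Kif20a with Cdc23, Kif4 with Pdzd11, Nusap1 with Oip5, Prc1 with Rccd1, Cdc20 with Elovl1 and Ube2c with Tnnc2. The libraries keep the strand, but how the authors' counting used strand is not given in the sources used here. If strand was not used, reads in these overlaps cannot be told apart. None of the 8 is among the 6 members that DESeq2 called.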

How the data were processed

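Polyadenylated RNA of 4 libraries was sequenced paired-end from strand-specific libraries, per the labels. The submitters' processing notes name HISAT2, HTSeq, Cufflinks, Trimmomatic and DESeq, and the build mm10. Versions and the counting's strand setting were not given in the sources used here. The authors deposited whole-number read counts per gene symbol for each library, with 17575998 to 20625957 counts in all. The authors also deposited FPKM, fragments scaled by transcript length and depth, used here to rank genes by level and as alternatives.

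Of 21878 entries 6043 had no count. Counts were fitted with edgeR 4.0.16 in R 4.3.3 (TMM, filterByExpr, quasi-likelihood test, group as the only term, two-sided) and p-values were adjusted by Benjamini-Hochberg over all 12332 tested genes, with a threshold of 0.05. The standard errors (SE) given with these fold changes were derived from the test. Each is the absolute log2 fold change divided by the square root of the F statistic. CPM are counts scaled to equal TMM-adjusted library totals by edgeR. DESeq2 1.42.0, limma 3.58.1 (voom, and log2 FPKM with a pseudocount of 1 or 0.1 and a mean of at least 0.5), other scalings and filters and leaving out each library were alternatives. The edgeR script was tested on simulated counts. Samples were grouped by title. Replicate numbers recur in both groups, and the deviations of same-numbered libraries from their group means had r = -0.0169 over 12332 genes, so the numbers were not used to pair libraries.

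The members, roles, lists and markers were chosen with earlier results of these data known. All members are named. Of each list of other genes, members past the edgeR threshold, or else the 2 with the highest mean FPKM, are named. Those called by DESeq2 were added after their values were seen. Motifs were searched as exact matches on both strands in RefSeq promoters (GRCm38.p6). Chromosomes came from RefSeq, for 99.3% of tested genes.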

Additional observations from a re-analysis of the deposited data

How the results depend on the processing

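The median log2 fold change of the members, 0.73, was 0.68 to 0.75 under other scalings, filters and tools. Single members moved more with limma on log2 FPKM, such as Cenpa (1.28, against 0.92 with edgeR), Ttk (0.68, against 0.98) and Kif2c (0.42, against 0.23). The median was 0.24 for the replicates numbered 2 alone. By summed CPM that pair sets the lower HepLPC library against the higher NPC_LPC library. The replicates numbered 1 are the other extreme, with sums of 7759 CPM in HepLPC and 2996 CPM in NPC_LPC. When a library was left out the median was 0.50 to 1.18 (0.55 without HepLPC replicate 1, 0.91 without HepLPC replicate 2, 0.50 without NPC_LPC replicate 1 and 1.18 without NPC_LPC replicate 2). The ratio of their sums of 1.63 was 1.05 for the replicates numbered 2 alone and 1.30 to 2.15 with a library left out. Between 41 and 46 members lay above 0 with a library left out.

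The number of members called was 0 with edgeR, 1 with no filter on low counts and 6 with DESeq2, and 0 under the other alternatives run, including each library left out. Over all genes the 53 calls became 593 with no filter, 1521 with DESeq2, 5 with limma-voom, 111 with limma on log2(FPKM + 1), 0 for the same with no filter, and 0 to 377 with a library left out (377 without NPC_LPC replicate 1, 107 without NPC_LPC replicate 2). With the replicate number as a block edgeR called 136 genes and 0 members, with a smallest member adjusted p of 0.137 and 11 members at an unadjusted p under 0.05. The causes were not tested.

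Of 752 member values under alternatives, 9 in 6 members differed in sign. The replicates numbered 2 alone are not among the 752. In that pair 13 members were lower in HepLPC, Pttg1 and Smc2 among them. Bub1, Nuf2, Kif4, Anln, Top2a and Foxm1 were also lower there, though fitted above 0, and are not among the 6. With each library left out in turn, Bub1b ran from -0.0067 to 0.86, Cenpe from -0.057 to 0.82, Cenpf from -0.057 to 0.91, Kif2c from -0.22 to 0.93, Mki67 from -0.32 to 0.82 and Smc2 from -0.80 to 0.12. Smc2 was also at 0.25 without its chromosome's median, an alternative chosen after seeing the data. The smallest member count was 54, and each group has 2 libraries.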
